A study of Mus musculus with 8 samples.

Results

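The GIMAP family (GTPases of the immunity-associated proteins) was examined in TNFR2+ and TNFR2- Tregs. The members were taken by symbol, after Ensembl identifiers were matched to mouse gene symbols: *Gimap1*, *Gimap3*, *Gimap4*, *Gimap5*, *Gimap6*, *Gimap7*, *Gimap8* and *Gimap9*. All 8 were found among the 20172 genes of the table. They form a cluster of 123.6 kb on mouse chromosome 6 (GRCm38, chr6:48647234-48770851), in the order *Gimap8*, *Gimap9*, *Gimap4*, *Gimap6*, *Gimap7*, *Gimap1*, *Gimap5* and *Gimap3*. *Gimap6* and *Gimap3* lie on the minus strand and the others on the plus strand.

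RNA was sequenced from Tregs of the spleens of female mice of the Foxp3 YFP-cre genotype, in which the *Foxp3* gene drives the yellow fluorescent protein and the Cre recombinase in both groups alike. YFP+ cells were sorted by surface TNFR2, the receptor for tumor necrosis factor encoded by *Tnfrsf1b*, into TNFR2+ Tregs (4 libraries) and TNFR2- Tregs (4 libraries). The labels name no treatment for either group, and the study's methods describe adult mice. The study's legend gives n = 4 for these mice. It does not say whether each library came from separate or pooled mice. The p-values therefore measure the spread between these samples only, which may be technical. In bulk RNA, fewer cells of a type and less RNA per cell cannot be told apart.

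GIMAP proteins are small GTP-binding proteins that sit mostly on the membranes of organelles and are expressed chiefly in lymphocytes. They are known for keeping resting T and B cells alive, and loss of *Gimap5* in rodents leaves few T cells. Their GTP-binding domain is related to that of the septins, and members bind one another and, in some reports, proteins of the Bcl-2 family and of autophagy.

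A library's normalized counts summed to between 9576920 and 11492762, with an estimated depth of 9100079 to 12112030 reads. The sort could be followed in the RNA. *Tnfrsf1b* lay between 1840 and 3148 normalized counts in the TNFR2+ libraries and between 1177 and 1563 in TNFR2- Tregs, a log2 difference of 0.90 ± 0.16 (SE; limma, adjusted p = 0.00449). *Foxp3* averaged 3126 and 3664 normalized counts, with overlapping groups. Of 8 T cell and Treg genes, 3 were called higher, *Ctla4*, *Ikzf2* and *Cd3e*, and none was called lower by limma. Before adjustment (p under 0.05) 5 were higher and 1 lower, against 1716 and 1495 of all 13990 genes tested. The lower 1 was *Il2ra*, at 2742 against 3482 normalized counts, without overlap (log2 difference -0.34 ± 0.11; limma, adjusted p = 0.086). Over all genes tested, 4.52% were called higher and 3.39% lower. Replicate 3 of the TNFR2- Tregs stood apart from the other libraries of its group, with the lowest correlations among replicates (0.881 to 0.886).

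Markers of other cells were measured beside the members. Those of B cells, which also express GIMAP genes, were measured for 11 of 15 genes, and their sum lay between 4032 and 6092 normalized counts in the TNFR2+ libraries and between 1843 and 2975 in TNFR2- Tregs. Most of it was *Ighm*, the heavy chain constant gene of immunoglobulin M, the only 1 of the 7 tested that was called (log2 difference 1.27 ± 0.17, adjusted p = 0.000745). Before adjustment 3 of the 7 were higher and none lower. The log2 difference was above 0 for 5 of the 7 and below 0 for 2. Those 2 were *Ebf1* (39.4 and 53.7 normalized counts in TNFR2+ and TNFR2- Tregs) and *Bank1* (17.8 and 32.4). *Ms4a1* averaged 57.5 and 55.4, and *Pax5*, too low to be tested, 4.72 and 12.7. *Cd22* averaged 309 and 150 normalized counts, without overlap (log2 difference 1.20 ± 0.36, adjusted p = 0.0612), and *Ighd* 57.3 and 26.4, while the defining *Cd79a* averaged 1.19 and 3.17 and *Cd79b* 38.7 and 24.7. Myeloid markers (6 of 15) summed to between 201 and 277 against between 192 and 242, and cytotoxic lymphocyte markers (7 of 10) to between 148 and 236 against between 104 and 170. Of the 4 cytotoxic markers tested 1 was called, *Nkg7*, a granule protein gene, which was higher in TNFR2+ Tregs (64.3 against 7.83 normalized counts, log2 difference 3.19 ± 0.65; limma, adjusted p = 0.00927). The only measured erythroid marker (1 of 7) reached at most 12.1, and the only platelet marker (1 of 5) 221. Endothelial markers (5 of 7) summed to between 1006 and 1653 in the TNFR2+ libraries, below the 1898 to 3266 of the others. Most of this was *Pecam1*, which T cells also express and which was called lower in TNFR2+ Tregs, as *Gimap6* was (log2 difference -1.18 ± 0.20, adjusted p = 0.00344). Proliferation genes (6 of 6) summed to between 3756 and 7106 normalized counts in the TNFR2+ libraries and between 553 and 1464 in TNFR2- Tregs. What part these differences have in the GIMAP values was not tested.

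Across 13990 genes tested, limma called 474 lower in TNFR2+ Tregs (3.39%) and 633 higher (4.52%) at an adjusted p under 0.05. Of the 8 GIMAP genes, all of which were tested, 1 was called lower, *Gimap6*, and none higher. Before adjustment (p under 0.05) 2 members were lower and 2 higher, against 1495 lower and 1716 higher of all 13990 genes tested. The median log2 difference over the 8 members was -0.10, against -0.01 over all genes tested. Without overlap between the groups, the 4 TNFR2+ libraries lay below the 4 TNFR2- libraries for 4 members (*Gimap6*, *Gimap9*, *Gimap3* and *Gimap8*) and above them for 1 (*Gimap1*). Among all tested genes these shares were 7.29% and 8.08%.

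*Gimap6* encodes a GTPase reported to bind the ATG8 protein GABARAPL2 and to act in autophagy and T cell survival. Its normalized counts were 3276, 2942, 3674 and 3156 in the TNFR2+ libraries and 5778, 5811, 5456 and 6433 in TNFR2- Tregs. Each TNFR2+ library lay below each TNFR2- library, with 1782 normalized counts between the nearest libraries. The level was 44.5% lower in TNFR2+ Tregs, a log2 difference of -0.85 ± 0.11 (SE, 95% confidence interval -1.08 to -0.62; limma, adjusted p = 0.000514). The exact permutation test over the 70 relabellings of 4 against 4 libraries gave p = 0.0286, the smallest it can give. It gave the same p for *Gimap9*, *Gimap3*, *Gimap8* and *Gimap1*, whose groups did not overlap either. Without replicate 3 of the TNFR2- Tregs the difference of *Gimap6* was -0.88 (limma, adjusted p = 0.00061).

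**Figure D1:**
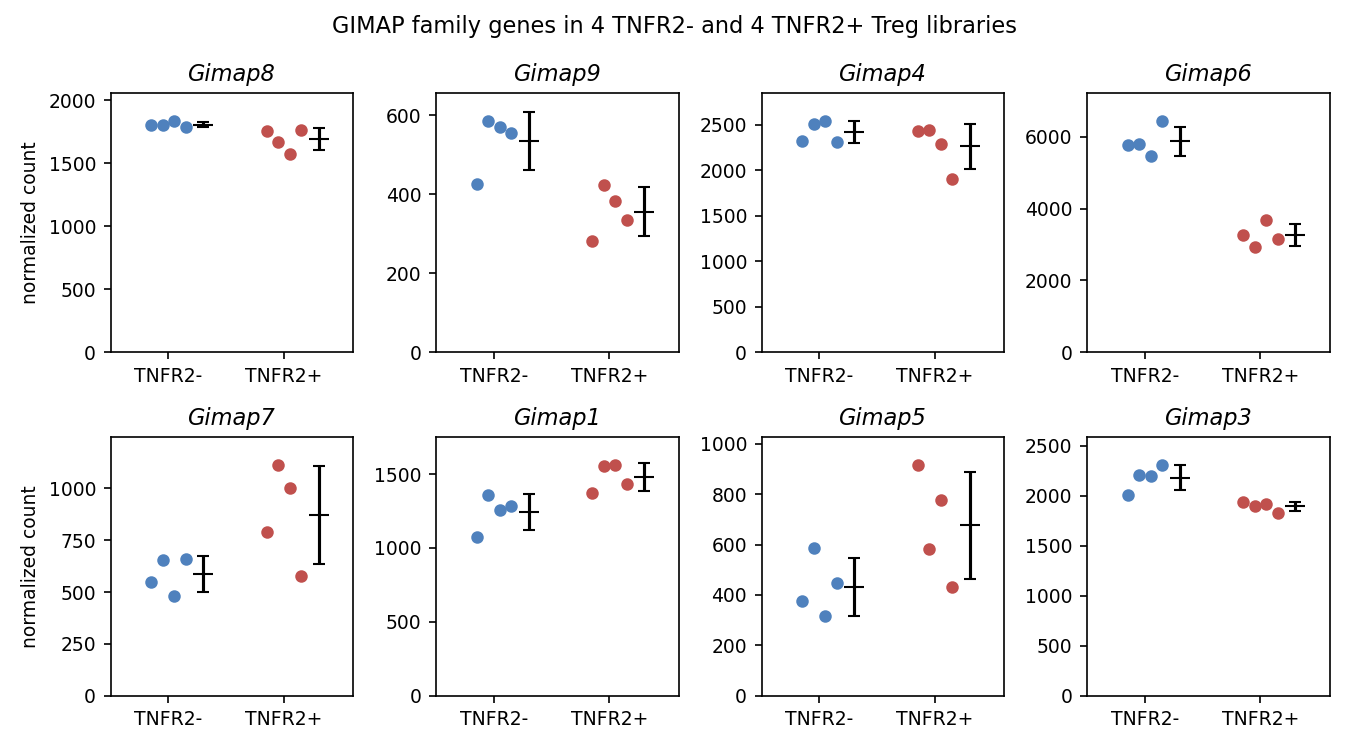
Normalized counts of each GIMAP gene (vertical axes, from 0) in the 4 TNFR2- and 4 TNFR2+ Treg libraries; each point is 1 library, and the bar beside the points gives the mean and SD. *Gimap6* shows the wide gap between the groups (2942 to 3674 against 5456 to 6433), whereas the points of *Gimap4*, *Gimap5* and *Gimap7* overlap.

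*Gimap9*, a little-studied member, ranked last of the family by its mean normalized count over the 8 libraries. Its normalized counts were 282, 425, 383 and 336 in the TNFR2+ libraries and 425, 585, 571 and 555 in TNFR2- Tregs. The groups were separated by only 0.842 normalized counts, between replicate 2 of the TNFR2+ and replicate 1 of the TNFR2- Tregs. The log2 difference was -0.59 ± 0.19 (95% confidence interval -0.99 to -0.18), with an unadjusted p of 0.00798 and an adjusted p of 0.0759 from limma, above the threshold.

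*Gimap3* encodes a mitochondrial member of rodents closely related to *Gimap5*. It measured 1936, 1899, 1912 and 1826 normalized counts in TNFR2+ Tregs, against 2009, 2209, 2196 and 2309 in TNFR2- Tregs. The libraries did not overlap, but the log2 difference was small, -0.20 ± 0.11 (95% confidence interval -0.43 to 0.03; limma, adjusted p = 0.281). *Gimap8*, the largest protein of the family, with more than one GTP-binding domain, measured 1757, 1665, 1573 and 1759 against 1804, 1801, 1832 and 1785 normalized counts. The TNFR2- libraries differed little from each other (SD 1.07% of the mean), and the log2 difference was -0.10 ± 0.11 (95% confidence interval -0.33 to 0.14; adjusted p = 0.645).

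*Gimap4*, studied for the pace of T cell death, measured 2429, 2440, 2285 and 1908 normalized counts in the TNFR2+ libraries and 2319, 2509, 2541 and 2308 in TNFR2- Tregs. The groups overlapped, with replicate 4 of the TNFR2+ Tregs the lowest of the 8 libraries. Its log2 difference was -0.10 ± 0.12 (95% confidence interval -0.35 to 0.15; limma, adjusted p = 0.665). When each library was put on a common sum, a scaling that raised the median log2 difference of all genes to 0.12 and turned the calls to 309 lower and 905 higher, *Gimap8* and *Gimap4* stood at 0.03 and *Gimap6* at -0.72 (adjusted p = 0.00137).

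*Gimap7*, *Gimap1* and *Gimap5* are neighbours on the plus strand, and each had a positive log2 difference that did not pass the test. *Gimap5*, whose protein is found on lysosomes and is needed for the survival of resting lymphocytes, measured 917, 583, 775 and 432 normalized counts in the TNFR2+ libraries and 378, 586, 315 and 449 in TNFR2- Tregs. The groups overlapped, and *Gimap5* had the largest relative spread of the family within TNFR2+ Tregs (SD 31.5% of the mean). Its log2 difference was 0.63 ± 0.25 (95% confidence interval 0.09 to 1.17; limma, adjusted p = 0.151).

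*Gimap7*, a GTPase studied for pairing with other members, measured 792, 1115, 1003 and 576 normalized counts in the TNFR2+ libraries and 550, 655, 483 and 661 in TNFR2- Tregs. Replicate 4 of the TNFR2+ Tregs fell among the TNFR2- libraries and the other TNFR2+ libraries lay above them. The log2 difference was 0.54 ± 0.21 (95% confidence interval 0.09 to 0.98; limma, adjusted p = 0.138). Without that library it was 0.72 (adjusted p = 0.0392), so whether *Gimap7* was called turned on 1 library.

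*Gimap1*, required for the survival of mature T and B cells, measured 1370, 1555, 1563 and 1433 normalized counts in the TNFR2+ libraries and 1071, 1360, 1256 and 1284 in TNFR2- Tregs. The groups did not overlap, with 10.5 normalized counts between the nearest libraries. The log2 difference was 0.26 ± 0.13 (95% confidence interval -0.02 to 0.53; limma, adjusted p = 0.248). Replicate 4 was the lowest TNFR2+ library for *Gimap4*, *Gimap7*, *Gimap5* and *Gimap3*, but not for *Gimap6*.

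**Figure D2:**
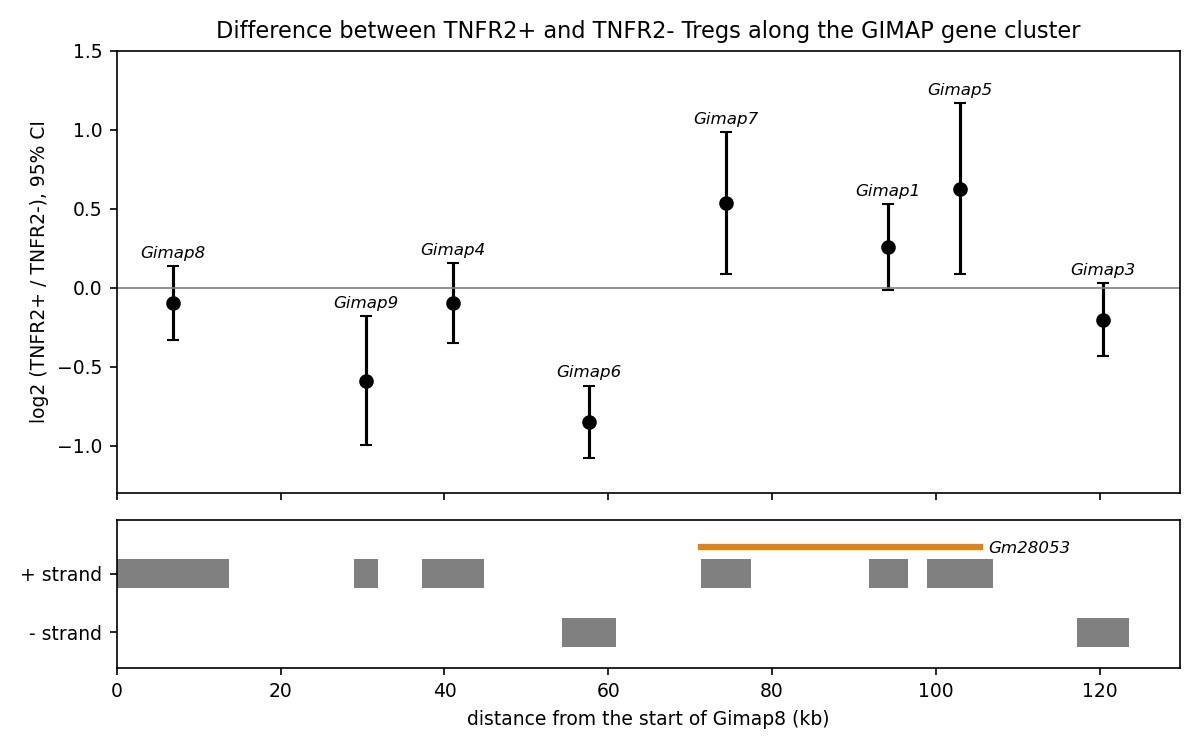
The log2 difference (TNFR2+ over TNFR2-, points, with 95% confidence intervals) of each GIMAP gene against the distance from the start of *Gimap8* in kb; the lower panel shows the genes by strand as grey boxes and the annotated read-through gene *Gm28053* as a line. The points of *Gimap7*, *Gimap1* and *Gimap5* lie above 0 (0.54, 0.26 and 0.63) and the other members below 0, with only *Gimap6* past the adjusted threshold.

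The 250 bases before the RefSeq start site (GRCm38.p6) are shown for *Gimap6*, the member that passed the test, and for the plus-strand neighbours *Gimap7*, *Gimap1* and *Gimap5*, which lay on the other side of 0. RefSeq gave 9 such promoters for the 8 members, with 2 for *Gimap8*. Capitals mark matches, on either strand, to short motifs of factors that act in T cells: RUNX (TGTGGT), ETS (AGGAAG), TCF/LEF (CTTTGA), FOXO (GTAAACA), KLF (CCACCC) and an E-box (CACCTG). The sequences read 5′ to 3′ along the gene's own strand.
Gimap6, chr6:48708245-48708494, minus strand: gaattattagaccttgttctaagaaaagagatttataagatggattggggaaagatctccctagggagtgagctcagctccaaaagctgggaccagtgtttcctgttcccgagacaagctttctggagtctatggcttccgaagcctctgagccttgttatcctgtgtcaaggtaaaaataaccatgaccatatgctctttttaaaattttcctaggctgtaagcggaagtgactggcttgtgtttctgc
Gimap7, chr6:48718371-48718620, plus strand: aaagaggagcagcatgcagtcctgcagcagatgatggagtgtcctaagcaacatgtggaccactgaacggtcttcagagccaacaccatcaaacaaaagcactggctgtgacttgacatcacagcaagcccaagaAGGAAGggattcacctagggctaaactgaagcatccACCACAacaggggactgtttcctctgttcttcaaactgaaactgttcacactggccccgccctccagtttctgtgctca
Gimap1, chr6:48738797-48739046, plus strand: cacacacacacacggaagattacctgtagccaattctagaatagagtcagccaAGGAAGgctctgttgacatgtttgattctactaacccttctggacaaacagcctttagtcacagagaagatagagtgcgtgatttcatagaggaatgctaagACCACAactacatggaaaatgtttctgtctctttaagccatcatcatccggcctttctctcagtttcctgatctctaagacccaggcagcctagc
Gimap5, chr6:48745947-48746196, plus strand: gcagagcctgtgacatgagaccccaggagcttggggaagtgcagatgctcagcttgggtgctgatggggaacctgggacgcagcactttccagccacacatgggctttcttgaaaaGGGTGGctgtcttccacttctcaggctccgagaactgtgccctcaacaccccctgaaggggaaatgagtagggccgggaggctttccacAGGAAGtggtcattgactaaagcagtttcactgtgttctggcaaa

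The *Gimap6* window held none of these letters, and neither did the *Gimap8* window at chr6:48646984-48647233. Only exact letters were searched, so a window without a match may hold other sites of these factors. The *Gimap7* and *Gimap1* windows each held an ETS and a RUNX match, and the *Gimap5* window an ETS and a KLF match. Over the 9 GIMAP promoters, 7 held the ETS letters, against 29.5% of all 32851 RefSeq promoters, 3 the RUNX letters (14.1%), 5 the KLF letters (28.1%), 1 the E-box letters (17.2%), 1 the FOXO letters (3.17%) and none the TCF/LEF letters (13.8%). The 2 promoters of *Gimap8* overlap in sequence. A match, or the lack of one, is a description of the letters in the window and says nothing of binding.

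Reads of some members could have been shared with other transcripts, which bears on these values. An annotated read-through gene, *Gm28053*, spans *Gimap7*, *Gimap1* and *Gimap5*, and was low, averaging 12.7 normalized counts in TNFR2+ and 12.2 in TNFR2- Tregs. When it was summed with those members, a check chosen after the data were seen, the log2 difference was 0.42 ± 0.13 (limma, adjusted p = 0.0769). *Gimap3* shared 13.2% of its stretches of 31 bases with *Gimap5*, and *Gimap5* 8.02% of its own with *Gimap3*. Summed and fitted as 1 gene, *Gimap3* and *Gimap5* differed by -0.03 ± 0.12 on the log2 scale (adjusted p = 0.927). *Gimap6* shared 1.3% of its stretches with any other gene on the same strand, and *Gimap4* and *Gimap9* none. *Gimap1* overlaps its antisense gene *Gimap1os*, with 33.9% of its stretches held in common on opposite strands. *Gimap1os* averaged 125 and 169 normalized counts (log2 difference -0.40 ± 0.27, adjusted p = 0.411), and whether the quantification kept the strands apart is not given in the sources used here.

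The family's summed normalized counts did not overlap between the groups and were lower in TNFR2+ Tregs, whereas the sums without *Gimap6* overlapped. The 8 genes summed to 12759, 12624, 13167 and 11425 normalized counts in the TNFR2+ libraries and to 14333, 15516, 14648 and 15785 in TNFR2- Tregs. The other 7 genes without *Gimap6* summed to 9232 ± 648 and 9201 ± 481 (SD, n = 4), with overlapping groups. *Gimap6* made up 26.1% ± 2.1 of the family's normalized counts in the TNFR2+ libraries and 38.9% ± 1.9 in TNFR2- Tregs (SD, n = 4). These sums weight long transcripts more than short ones.

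**Figure D3:**
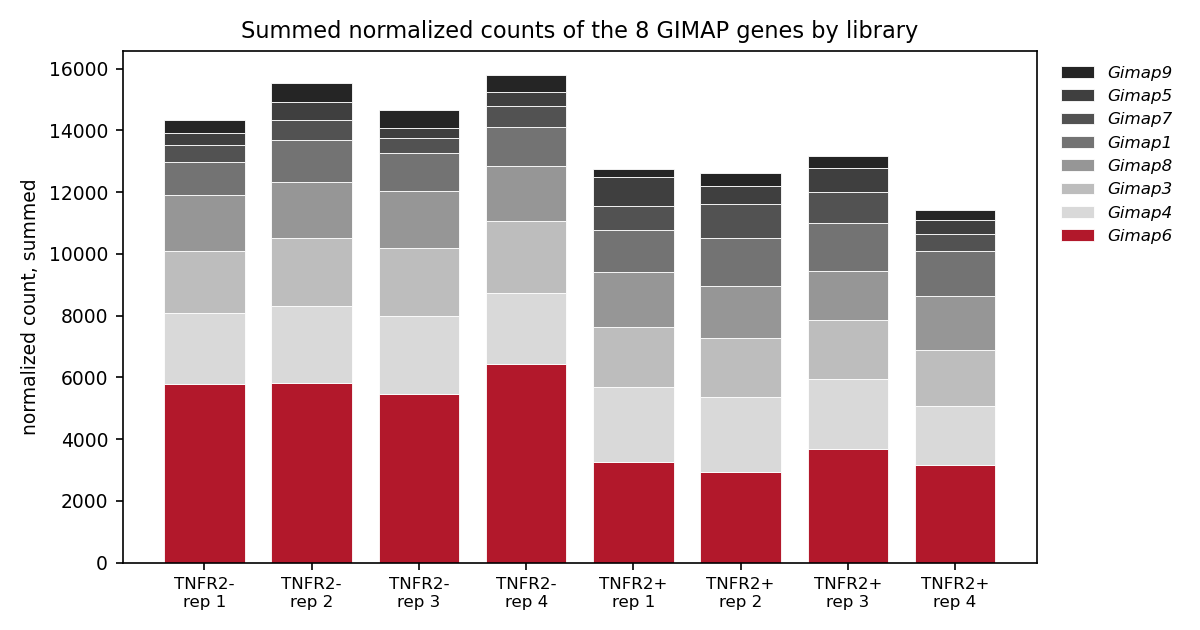
Normalized counts of the 8 GIMAP genes stacked for each of the 4 TNFR2- and 4 TNFR2+ Treg libraries, with *Gimap6* at the foot in red and the other members in grey. The totals run from 14333 to 15785 in TNFR2- and from 11425 to 13167 in TNFR2+ Tregs, and the grey part overlaps between the groups.

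Ratios within a library do not depend on how libraries were scaled. *Gimap6* was 4.76 times *Gimap1* in TNFR2- Tregs (range 4.27 to 5.40) and 2.21 times in TNFR2+ Tregs (range 1.89 to 2.39). *Gimap6* was 2.69 times *Gimap3* in TNFR2- Tregs and 1.72 times in TNFR2+ Tregs, and these ranges did not overlap either (2.48 to 2.88 and 1.55 to 1.92). Against *Gimap9*, the other member with a log2 difference below -0.5, the ratio did overlap: *Gimap9* over *Gimap6* ran from 0.086 to 0.144 in TNFR2+ and from 0.0736 to 0.105 in TNFR2- Tregs. Separation was not particular to *Gimap6*: ratios did not overlap for 6 of the 7 pairs with it and for 9 of the 21 pairs without it. *Gimap9* over *Gimap1*, for example, ran from 0.205 to 0.273 in TNFR2+ and from 0.397 to 0.454 in TNFR2- Tregs. The pairs come from only 8 genes, of which 4 were lower and 1 higher without overlap on their own, so they are not independent. Ratios of other gene pairs were not counted. The counts of pairs therefore have no background share beside them and are not read as a trait of the family or of *Gimap6*.

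Levels were compared between genes as normalized counts per kilobase of the longest annotated transcript. In TNFR2- Tregs *Gimap6* was the highest member, at 1846 ± 129 per kb (SD, n = 4), followed by *Gimap4* (1341 ± 68.0), *Gimap3* (1017 ± 58.5), *Gimap1* (770 ± 76.0) and *Gimap8* (571 ± 6.13). Each of these levels lay above the next in all 4 libraries without overlap of the ranges. *Gimap7* (463 ± 68.0) lay below *Gimap8* in the same way but overlapped *Gimap9* (386 ± 53.1), and *Gimap5* was the lowest, at 186 ± 49.9.

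In TNFR2+ Tregs *Gimap4* stood first, at 1256 ± 138 per kb (SD, n = 4), ahead of *Gimap6* at 1026 ± 96.7. The ranges of this pair overlapped, although *Gimap4* was higher within each of the 4 libraries. *Gimap1* (917 ± 58.5), *Gimap3* (883 ± 22.1), *Gimap7* (687 ± 188) and *Gimap8* (534 ± 28.03) followed, each overlapping its neighbour in this order, and *Gimap5* (291 ± 91.6) and *Gimap9* (257 ± 44.5) closed it, below *Gimap8* without overlap. Per kilobase of coding sequence *Gimap6* was first in both groups, at 3565 and 6415 in TNFR2+ and TNFR2- Tregs, so the place of *Gimap4* depends on the length used.

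**Figure D4:**
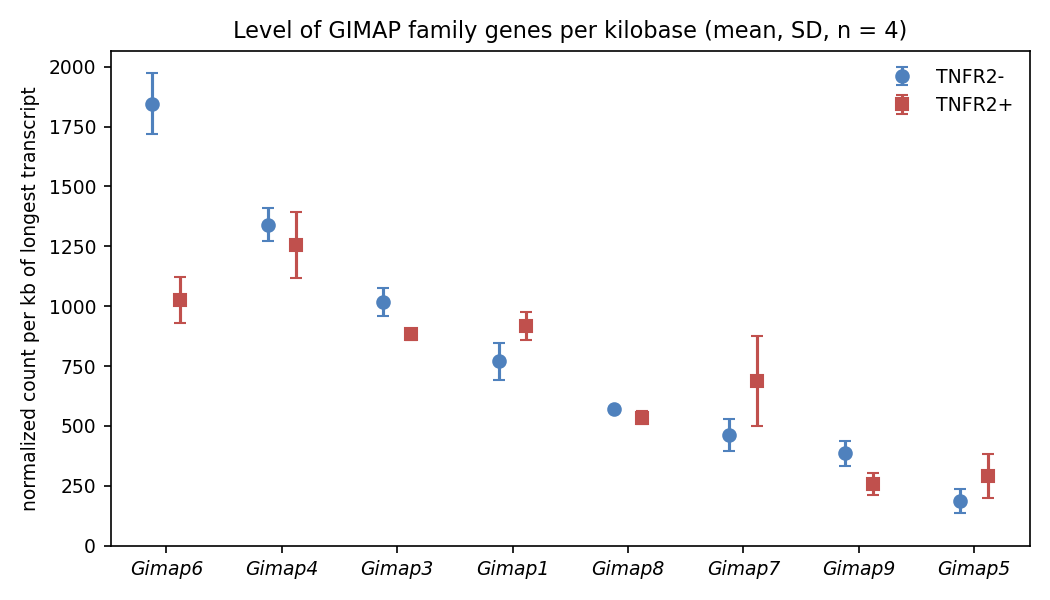
Normalized counts per kb of the longest annotated transcript for each GIMAP gene, in descending order of the TNFR2- Tregs; circles are TNFR2- and squares TNFR2+ Tregs, with the mean and SD of 4 libraries. *Gimap6* is first in TNFR2- Tregs at 1846 and stands at 1026 in TNFR2+ Tregs, where the mean of *Gimap4* is higher; the TNFR2+ levels of *Gimap5* and *Gimap9* overlap.

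Genes around the cluster went in both directions. Of 52 annotated genes within 500 kb on either side, *Gm28053* and *Gimap1os* included, 19 were in the table and 13 were tested. Of the 13, 1 was called higher and none lower by limma (4.52% and 3.39% over all genes tested). Before adjustment 2 of the 13 were higher and 1 lower, against 1716 higher and 1495 lower of all 13990 genes tested. The called gene was *Sspo*, which encodes the secreted protein SCO-spondin (382 and 39.2 normalized counts in TNFR2+ and TNFR2- Tregs, log2 difference 3.56 ± 0.66, adjusted p = 0.00508). The nearest tested neighbours upstream, *Zfp775* and *Repin1*, both zinc finger genes, had log2 differences of -0.78 ± 0.49 (adjusted p = 0.372) and 1.98 ± 0.72 (adjusted p = 0.117). The others were *Gpnmb* (-1.27), *Tra2a* (-0.32), *Malsu1* (-0.15), *Tmem176b* (-0.02), *Zfp467* (0.03), *Gm16630* (0.14), *Lrrc61* (0.22) and *Krba1* (0.24), with adjusted p between 0.160 and 0.991. The median over the 13 was -0.02.

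Genes whose products have been reported to act with GIMAP proteins went in both directions. Of 7, 1 was called lower and 1 higher (background 3.39% and 4.52%), with a median log2 difference of 0.01. *Bcl2*, which protects resting lymphocytes from death, was lower in TNFR2+ Tregs, at 1369 against 2803 normalized counts (log2 difference -1.03 ± 0.16; limma, adjusted p = 0.00191). *Bcl2l1*, which encodes the related Bcl-xL, was higher, at 643 against 272 (1.26 ± 0.23, adjusted p = 0.00475). *Mcl1*, another survival gene of this family, had a log2 difference of -0.35 ± 0.10 (adjusted p = 0.0574). The pro-apoptotic *Bax* (-0.14), the chaperone gene *Hspa8* (0.08), the kinase gene *Gsk3b* (0.08) and *Gabarapl2* (0.01) did not pass, with adjusted p of 0.743 or more.

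Of the 5 ATG8 family genes, whose proteins tag autophagosome membranes, *Gabarap* was called higher (567 against 368 normalized counts, log2 difference 0.64 ± 0.18, limma, adjusted p = 0.0411). None was called lower (background 4.52% higher and 3.39% lower). *Gabarapl1* stood at 1.22 ± 0.40 (adjusted p = 0.0799), *Map1lc3b* at -0.30 ± 0.12 (adjusted p = 0.160) and *Map1lc3a* at -0.68 ± 0.36 (adjusted p = 0.277). *Gabarapl2*, the reported partner of GIMAP6, averaged 350 and 344 normalized counts, with overlapping groups (95% confidence interval of the log2 difference -0.40 to 0.43).

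Among related or comparable GTPases the lists leaned in different directions. Of 16 interferon-inducible GTPases, 4 were called lower and none higher by limma (background 3.39% and 4.52%). Before adjustment 6 were lower and none higher, and the median log2 difference was -0.49. The largest differences were those of *Gbp11* (-1.67 ± 1.27, adjusted p = 0.477), *Tgtp1* (-1.43 ± 0.29, adjusted p = 0.00925), *Tgtp2* (-0.93 ± 0.20, adjusted p = 0.0137) and *Irgm2* (-0.78 ± 0.28, adjusted p = 0.107). *Tgtp1* and *Tgtp2* are near-identical copies, so the split of reads between them is uncertain. The other called genes, named after their values were seen, were *Gbp4* (-0.59) and *Gbp6* (-0.58). Of 8 tested septins, cytoskeletal GTPases, 2 were called higher, *Sept8* (1.78 ± 0.46, adjusted p = 0.0313) and *Sept7* (0.55 ± 0.13, adjusted p = 0.021), and none lower (none before adjustment). The background was 4.52% higher and 3.39% lower. *Sept5* (1.499) and *Sept2* (0.49) did not pass, and the median was 0.40.

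*Gimap6* lay on the same side as most genes of naive and quiescent T cells. The list of 16 such genes was chosen with earlier results of these data known. Of them, 11 were called lower in TNFR2+ Tregs and none higher by limma (background 3.39% and 4.52%). Before adjustment 14 were lower and none higher, and the median log2 difference was -0.71. Among the largest were *S1pr1*, the receptor that lets T cells leave lymphoid tissue (-2.12 ± 0.19), *Satb1*, an organizer of chromatin in T cells (-1.92 ± 0.18), and *Klf2*, a transcription factor of quiescence (-1.85 ± 0.19), each with an adjusted p of 0.000244 or less. The median of the GIMAP members was -0.10.

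**Figure D5:**
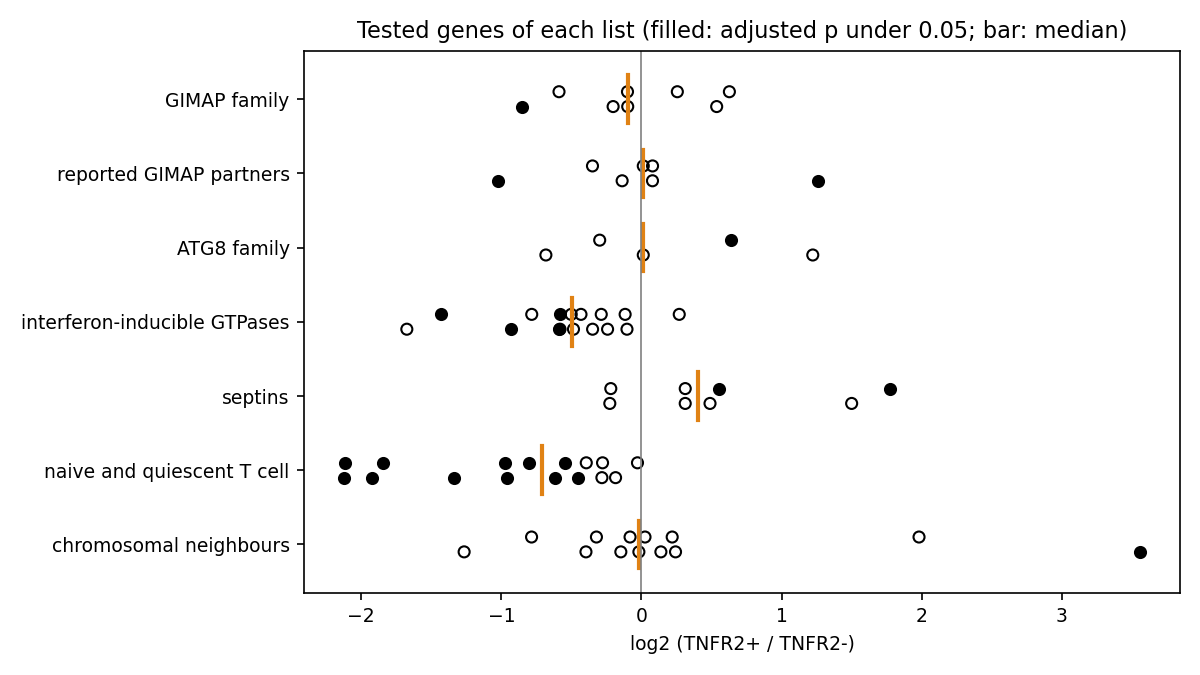
The log2 difference (TNFR2+ over TNFR2-, horizontal axis) of each tested gene of 7 lists; filled circles passed the adjusted threshold of 0.05, open circles did not, and the bar marks the list's median. Most naive and quiescent T cell genes are filled and to the left of 0 (11 of 16), whereas the GIMAP family has 1 filled circle, *Gimap6*.

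The members did not share a single pattern over the libraries. Pearson's r between 2 members, with each group's mean taken off, ran from -0.72 (*Gimap8* and *Gimap7*) to 0.91 (*Gimap9* and *Gimap1*). Among the genes most like the mean log2 value of the 8 members, out of 10237 with a mean of at least 50, were *Fam89b* (Pearson's r 0.92 over 8 libraries), *Nmi* (0.89), *Smndc1* (0.88) and *Gm11131* (0.88), none of them called between the groups. With each group's mean taken off, they were *Ppt1* (0.96), *Dhx32* (0.95), *Acap2* (0.95), *Smarcad1* (0.94) and *Fam89b* (0.93). For *Gimap6* alone, a search added after its values were seen, *Satb1* was closest, with r = 0.99, followed by *Hexim1* (0.99), *Gm45837* (0.99), *Add3* (0.99) and *Gm36931* (0.99). All 5 were called lower in TNFR2+ Tregs, and with 2 groups this far apart r mostly restates that difference. The values are descriptions over 8 libraries picked from many genes, and the points share the libraries' scaling.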

How the data were processed

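RNA-seq of 4 TNFR2+ and 4 TNFR2- Treg libraries was analysed. The authors made stranded total RNA libraries, trimmed the reads with Trim Galore, quantified them with salmon 1.3.0 on GRCm38 and normalized gene counts with DESeq2 1.28, and the deposited signal is that normalized count, on a linear scale. How transcripts were summed to genes is not given in the sources used here. Low values lay within 0.1 of whole multiples of a step in 69.7% to 96.4% of cases. Chance gives 20% for a fixed step, but the step was chosen in each library for the highest share, so the 20% understates chance. Depths were estimated from the step, but each gene's reads could not be recovered, so no count model was fitted. Replicate pairs differed by 24.6 to 58.8 times counting noise, so none was a repeat of another library.

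Values were taken as log2(normalized count + 1), a scale that understates the change of low genes. Genes with a mean of at least 10 (13990) were tested with limma 3.58.1 in R 4.3.3, with an intensity trend, two-sided, with Benjamini-Hochberg adjustment over all of them. The script was tested on simulated data. Single values were also tested by an exact two-sided permutation test. Symbols and coordinates came from GENCODE M21 (GRCm38), which matched 20008 identifiers. The members and lists were chosen with earlier results of these data known. Named genes were all members, *Tnfrsf1b*, all tested partner, ATG8 and neighbouring genes, the 4 largest differences of each other list, and the 5 genes most like the members' mean; markers of other cells are named as checks. Some genes that this rule names are not reported here. Python 3.11.15 and matplotlib 3.10.9 were used. Alternatives changed the pseudocount, filter, trend, library weights, scaling, pairing, length, read assignment and libraries included.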

Additional observations from a re-analysis of the deposited data

Results flagged for a closer look

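Among 35 GIMAP and related measures in each group, 3 groups held a library far from the other 3, by Dixon's test at the 95% level; chance alone gives about 1 in 20. Each was replicate 3 of the TNFR2- Tregs, and none was a GIMAP gene. *Mcl1* stood at 4579 normalized counts there, against 5278 to 5363 in the others. *Gpnmb* stood at 41.5, against 7.08 to 8.44. *Tra2a* stood at 1125, against 1334 to 1373. Without this library *Gimap6* was still called lower, with a log2 difference of -0.88, and no other member was called.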

How the results depend on the processing

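*Gimap6* kept its direction and its call under all 17 alternatives that were refitted, with log2 differences from -0.91 to -0.69 and adjusted p (limma) from 0.000219 to 0.027, the last without an intensity trend. No other member was called, except *Gimap7* without TNFR2+ replicate 4 (0.72, adjusted p = 0.0392). Leaving out 1 library at a time gave 0 to 1 members called higher and a median log2 difference from -0.13 to -0.07. Scaled to a common sum, the median was 0.0309, and *Gimap8* and *Gimap4* changed sign to 0.0317 and 0.0301, where the median of all genes rose to 0.12. Under quantile normalization the median also changed sign, to 0.00095, as did *Gimap4*, to 0.0228. The common sum raised the value of every member. Library sums ran from 9576920 to 10295226 in TNFR2+ and from 10483291 to 11492762 in TNFR2- Tregs. What lay behind the changes under quantile normalization was not tested. *Gimap3* and *Gimap5* summed gave -0.0263, a value of the sum and not of *Gimap5* alone. *Gimap3* made up most of it (1893 and 2181 normalized counts in TNFR2+ and TNFR2- Tregs, against 677 and 432 for *Gimap5*). With coding length, 4 members changed rank by level.

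Same-numbered libraries did not deviate together (correlations -0.04 to 0.00), so the numbers are not taken as pairs. With the replicate block, 1 member was called lower and 0 higher, *Gimap6* had an adjusted p of 0.0013, and 508 genes were called lower and 675 higher, against 474 and 633 without it; no library correlated best with its own number. Over all genes, the counts called lower and higher were 182 and 283 without the trend, 309 and 905 on a common sum, 279 and 432 without TNFR2- replicate 2, and 297 and 339 without TNFR2+ replicate 2. How depth limits the members' calls was not tested. *Gm28053*, at about 12 normalized counts, had a 95% confidence interval of the log2 difference from -1.75 to 1.59.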
